A study of Mus musculus with 4 samples.

Results

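Granins and the enzymes that process the contents of dense-core vesicles were followed in motor neurons of mice that carry wild-type or mutant human SOD1. The set holds 10 genes, chosen by symbol: the granins Chga, Chgb, Scg2, Scg3 and Vgf, the chaperone-like granin Scg5, the convertase Pcsk2, the trimming and amidating enzymes Cpe and Pam, and the vesicle membrane protein Cyb561. All 10 were found, with 1 entry each, among the 27189 entries of the expression tables, and all 10 were among the 11530 entries that had a mean RPKM (reads per kilobase of transcript, scaled to the mapped reads of the library) of at least 1 and were tested. Scg5 entered the set because of its low value in the G85R libraries of this same comparison. Its values are therefore given as a description with no test, and the other 9 genes were listed by their function.

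The study compared RNA of large ventral horn motor neurons, cut from frozen spinal cord sections by laser after Azure B staining, in 4 libraries from mice at 3 months of age. The transgenic strains were wild-type SOD1-YFP (strain 592) and G85R SOD1-YFP (strain 737), with 2 libraries of each and each library from 1 mouse. Both carry a human genomic SOD1 fragment fused to yellow fluorescent protein on a mixed C57BL/6J and SJL/J background, so neither group is a nontransgenic control, and G85R is the substitution linked to amyotrophic lateral sclerosis (ALS). The G85R strain carries many more transgene copies, each genotype is 1 transgenic line, and cell bodies filled by large aggregates were not collected from G85R cords, so that mutation, copy number and strain cannot be told apart.

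Granins are acidic proteins that aggregate with calcium in the trans-Golgi network and help to pack peptides into dense-core vesicles, the carriers from which neurons and endocrine cells release neuropeptides and hormones on demand. Inside the vesicle a prohormone convertase cuts the precursor at pairs of basic residues, a carboxypeptidase removes these residues from the new end, and an amidating enzyme converts a terminal glycine to an amide. That last enzyme uses ascorbate, which a cytochrome in the vesicle membrane keeps reduced by passing electrons from the cytosol. Motor neurons use acetylcholine as their transmitter and also make peptides such as CGRP that travel in these vesicles.

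The libraries held an estimated 21560318 to 25186594 reads on genes, and 1 read was worth a median of 0.0195 to 0.0226 RPKM. The label of motor neurons held up against its markers, with Chat, the acetylcholine-synthesizing enzyme, at 49.6 to 81.2 RPKM, Slc18a3 at 309 to 477 and Slc5a7 at 167 to 221. Summed RPKM over the 8 motor neuron markers was 1709 and 1989 in the wild-type and 1413 and 1798 in the G85R libraries. Of the 8, 4 were lower without overlap in G85R, beside 23.9% of all tested genes. None of the 8 reached a limma adjusted p under 0.05. Markers of other cells were present too. The 6 astrocyte markers summed to 441 and 447 RPKM in wild-type and to 615 and 527 in G85R, with Gfap at 11.5 and 17.1 against 91.9 and 28.4. Most of that sum was S100b, at 412 and 414 against 498 and 483, while Aqp4, Aldh1l1, Slc1a3 and Gja1 overlapped between the genotypes. The 7 microglial markers summed to 13.9 and 15.7 against 33.5 and 16.7. Of these 7, 4 (C1qa, C1qb, C1qc and Itgam) were higher without overlap in G85R, beside 17.3% of all tested genes. Aif1, Cx3cr1 and Csf1r overlapped. Aif1 and Itgam were too low to be tested, and no tested astrocyte or microglial marker reached a limma adjusted p under 0.05. Of the chromaffin cell markers, cells known for abundant granins, the sum over 4 genes was 1.26 to 1.75 RPKM, with Dbh listed at 0 in all libraries. Fewer cells of a type and less RNA per cell cannot be told apart in such samples.

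Scg5 encodes 7B2, a small granin-family protein that binds the precursor of Pcsk2 and is needed for that enzyme to become active. The gene lies on the minus strand of chromosome 2 (NCBIM37, chr2:113616519-113669278) with 6 exons and a coding length of 636 bases. Its level was 732 and 657 RPKM in wild-type replicates 1 and 2 and 176 and 163 RPKM in G85R replicates 1 and 2. Both G85R values lay far below both wild-type values, and the replicates of each genotype were close together. The mean was 694 ± 53.0 RPKM (SD, n = 2) in wild-type and 169 ± 9.39 RPKM (SD, n = 2) in G85R, a ratio of 4.10 and a log2 difference of -2.03, which ranged from -2.11 to -1.96 with any 1 library left out. An estimated 26255 and 25040 reads lay behind the wild-type values and 5763 and 5659 behind those of G85R, so that counting error was small in each library. In wild-type motor neurons Scg5 had a higher RPKM than 99.5% of tested genes, and in G85R it still exceeded 96.8% and 96.3% of them.

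Pcsk2 encodes PC2, the convertase that 7B2 serves, which cuts many neuropeptide precursors late in vesicle maturation. Its level was 52.0 and 50.7 RPKM in the wild-type libraries against 42.1 and 44.4 RPKM in the G85R libraries. Both G85R values were lower, but the difference was small beside that of Scg5. The log2 fold change was -0.25 (SE 0.10, 95% interval -0.48 to -0.01), with a limma adjusted p of 0.426. Per length, wild-type libraries held 14.1 and 12.9 times as much Scg5 as Pcsk2 RNA, and G85R libraries 4.18 and 3.67 times as much. In both genotypes the transcript of the helper protein thus exceeded that of its enzyme, and the log2 ratio was lower in G85R by 1.79 (given as a description, since Scg5 chose the comparison). The gene spans 12 exons on the plus strand of chromosome 2 (NCBIM37, chr2:143371892-143642021), where other annotated genes overlap it, and reads of overlapping genes may have been shared.

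**Figure D1:**
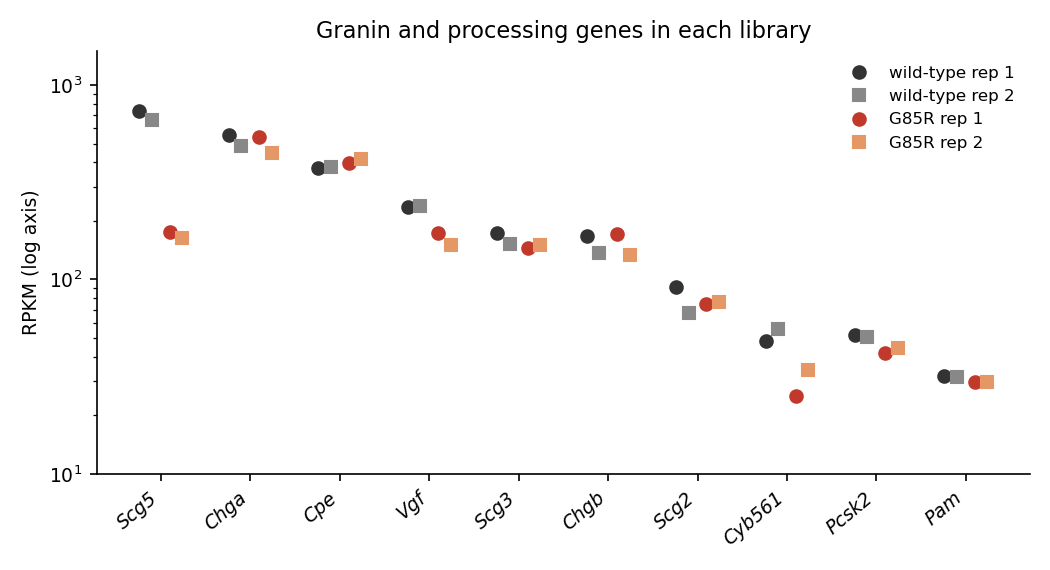
RPKM of the 10 genes (log axis) in each of the 4 libraries, ordered by wild-type mean. Circles are replicate 1 and squares replicate 2, dark for wild-type and red or orange for G85R. Scg5 sits at the top in wild-type, at 732 and 657, and at 176 and 163 in G85R, while Chga, Chgb and Scg2 overlap between the genotypes.

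The plot of RPKM by library shows Scg5 as the most abundant of the 10 transcripts in wild-type and a mid-level one in G85R. In wild-type the order was Scg5, Chga, Cpe, Vgf, Scg3, Chgb, Scg2, Cyb561, Pcsk2 and Pam. Only the neighbors Scg3 and Chgb, and Cyb561 and Pcsk2, overlapped between their replicates. In G85R the order was Chga, Cpe, Scg5, Vgf, Chgb, Scg3, Scg2, Pcsk2, Cyb561 and Pam. There, each neighboring pair from Scg5 to Scg3 overlapped, and so did Cyb561 and Pam. Summed over the 10 genes, RPKM was 2461 and 2254 in wild-type against 1779 and 1649 in G85R. Without Scg5 the sums were 1729 and 1597 against 1603 and 1486, which overlap.

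None of the 9 genes listed by function was called at a limma adjusted p under 0.05, where 0.642% of all tested genes were called (0.373% lower and 0.269% higher in G85R). At an unadjusted limma p under 0.05, 3 of the 9 (Vgf, Cyb561 and Pcsk2) were lower in G85R and none was higher, against 6.37% and 4.66% of all tested genes. Values did not overlap between the genotypes for 5 of the 9, lower in G85R, and for 1, higher in G85R, against 23.9% and 17.3% of all tested genes. The median log2 fold change of the 9 was -0.10, beside -0.02 over all tested genes. A two-sided exact permutation test of 1 gene, with 2 libraries a genotype, has 0.333 as its smallest possible p.

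**Figure D2:**
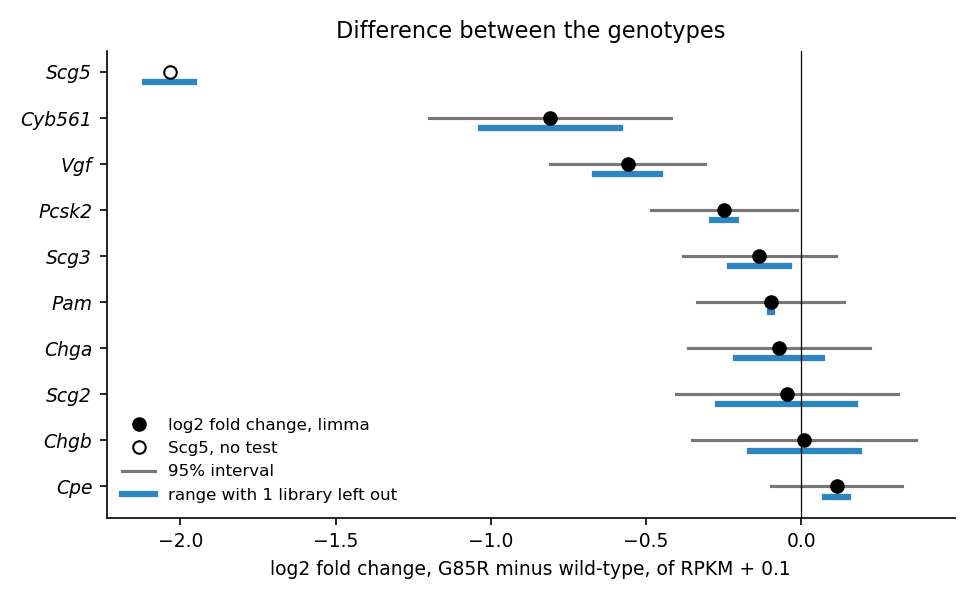
Log2 fold change of RPKM + 0.1, G85R minus wild-type, for the 10 genes. Filled points carry a limma 95% interval (thin line), the open point is Scg5 with no test, and thick lines show the range with 1 library left out. Intervals of Cyb561, Vgf and Pcsk2 lie below 0, and those of the other 6 tested genes include 0.

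In the plot of fold changes, the intervals of Chga, Chgb, Scg2 and Scg3 include 0. Scg5, chosen for its low G85R values, has no interval to set beside them. Chga, chromogranin A, the founding granin and the source of several bioactive peptides, was at 554 and 486 RPKM in wild-type against 543 and 449 RPKM in G85R. The replicates of each genotype were further apart than the genotypes. Its log2 fold change was -0.07 (95% interval -0.37 to 0.22, limma adjusted p = 0.913). Chgb, chromogranin B, an abundant partner of Chga in the granule core, was at 167 and 136 RPKM in wild-type against 171 and 134 RPKM in G85R. These values interleave, with a log2 fold change of 0.01 (95% interval -0.35 to 0.37, limma adjusted p = 0.990). The ratio of Chga to Chgb stayed between 3.17 and 3.57 in the 4 libraries.

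Secretogranin II, encoded by Scg2, is the precursor of secretoneurin, and its RPKM was 91.2 and 67.2 in wild-type against 74.985 and 76.6 in G85R. The wild-type replicates lay on either side of both G85R libraries. The log2 fold change was -0.05 (95% interval -0.41 to 0.31, limma adjusted p = 0.955). Secretogranin III, encoded by Scg3, binds Chga and cholesterol-rich vesicle membrane, and its RPKM was 174 and 152 in wild-type against 146 and 150 in G85R. Here the genotypes did not overlap, but the gap between the closest libraries was small and the log2 fold change was -0.13 (95% interval -0.38 to 0.11, limma adjusted p = 0.721). The intervals of these 4 granins leave room for differences of up to 0.41 on the log2 scale in the direction of lower values.

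Vgf, a neurotrophin-inducible granin cut into many secreted peptides, was the granin with the lowest G85R value relative to wild-type after Scg5. Its RPKM was 237.0 and 237.3 in the wild-type libraries against 173 and 149.7 in the G85R libraries. The wild-type replicates were nearly identical, and both G85R values lay well below them. Mean RPKM was 237 ± 0.200 (SD, n = 2) in wild-type and 161 ± 16.6 (SD, n = 2) in G85R, lower by 32.0%. The log2 fold change was -0.56 (SE 0.11, 95% interval -0.81 to -0.31) with a limma adjusted p of 0.0965, which missed the threshold, and adjusted p ranged from 0.00358 to 0.236 over the alternative settings. Vgf was the 1 of the 9 genes that passed a log-linear likelihood ratio test on rounded RPKM, which called 0.228% of all entries. That test adds up the replicates of each genotype, so its p does not measure the spread between mice and depends on the RPKM unit. Vgf is a gene of 2 exons on chromosome 5 (NCBIM37, chr5:137506165-137509221).

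Cpe encodes carboxypeptidase E, which removes basic residues after the convertase cut and has also been studied as a sorting receptor. Cpe was at 374 and 380 RPKM in wild-type and at 398 and 419 RPKM in G85R, the single member with both G85R values above both wild-type values. The log2 fold change was 0.11 (95% interval -0.10 to 0.33, limma adjusted p = 0.726). Pam, the amidating monooxygenase, was at 31.8 and 31.7 RPKM in wild-type against 29.7 and 29.5 RPKM in G85R. Replicates of Pam differed by 0.01 on the log2 scale in either genotype, and the genotypes did not overlap, yet the log2 fold change was only -0.10 (95% interval -0.34 to 0.14, limma adjusted p = 0.810). Other annotated genes overlap Pam on chromosome 1 (NCBIM37, chr1:99691691-99992223), and reads of overlapping genes may have been shared.

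Cyb561 encodes the cytochrome b561 that carries electrons across the vesicle membrane to ascorbate. Its RPKM was 48.3 and 55.3 in the wild-type libraries against 25.2 and 34.4 in the G85R libraries. Both G85R values lay below both wild-type values, with replicate 1 the lowest. Mean RPKM was 51.8 ± 4.96 (SD, n = 2) in wild-type and 29.8 ± 6.53 (SD, n = 2) in G85R, lower by 42.4%. The log2 fold change was -0.81 (SE 0.16, 95% interval -1.20 to -0.42) with a limma adjusted p of 0.116, which missed the threshold. Leaving out G85R replicate 2 brought Cyb561 under the threshold at a log2 fold change of -1.03, and adjusted p ranged from 0.000871 to 0.281 over the alternative settings. G85R replicate 1 was also the library with the highest Gfap and microglial marker sum and the lowest Chat, and the part of these cells in the Cyb561 value was not tested.

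**Figure D3:**
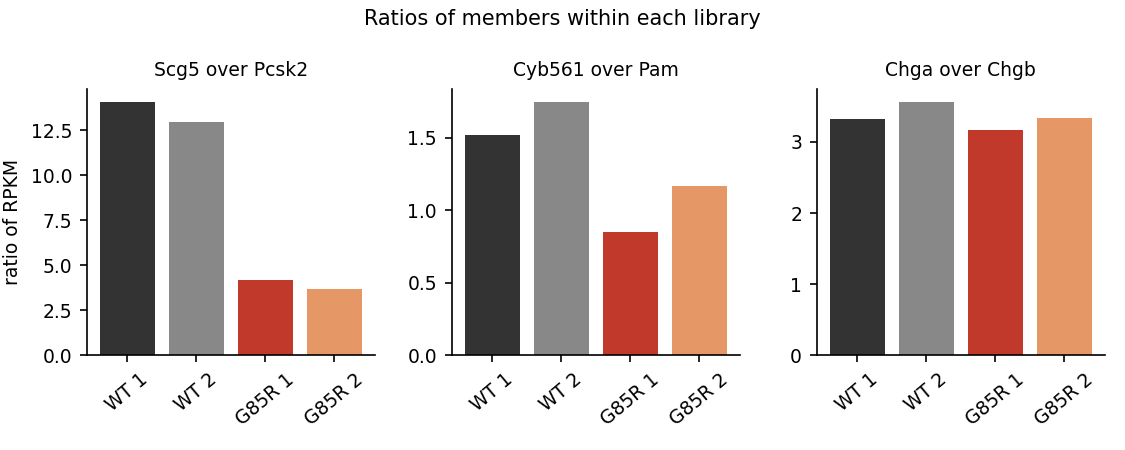
Ratio of RPKM within each library (bars from 0) for Scg5 over Pcsk2, Cyb561 over Pam and Chga over Chgb. WT is wild-type. The first ratio is 14.1 and 12.9 in wild-type against 4.18 and 3.67 in G85R, the second is 1.52 and 1.75 in wild-type against 0.849 and 1.17 in G85R, and the third lies between 3.17 and 3.57 throughout.

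Ratios of functional partners within a library, as in the bar plot of ratios, do not depend on the depth of that library. Cyb561 RNA, which serves the amidating reaction, exceeded Pam RNA by 1.52 and 1.75 times per length in wild-type, and the ratio was 0.849 and 1.17 in G85R. The ratio of Cpe to Pam was 11.8 and 12.0 in wild-type against 13.4 and 14.2 in G85R. These are descriptions of 4 libraries and were not tested.

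The wider regulated secretory pathway was covered by 6 lists with 75 genes, of which 73 were found and 56 tested. None of the 56 was called by limma at an adjusted p under 0.05 (0.642% of all tested genes), while at an unadjusted p under 0.05 there were 12 lower and 8 higher genes, beside 6.37% and 4.66% of all tested genes. A total of 34 had a log2 fold change below 0, against 54.7% of all tested genes, and the median was -0.04.

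Among the 4 granin-like proteins outside the set, 1 had a log2 fold change below 0 and 3 above, with a median of 0.07 that was 0.25 without wild-type replicate 2. Gnas, whose locus also encodes the large granin-like protein XLas, was the most abundant at 1595 and 1815 RPKM in wild-type against 1993 and 2045 RPKM in G85R (log2 fold change 0.25, limma adjusted p = 0.424). These values are of the most abundant of 3 Gnas entries, which pools 7 transcripts. Whether XLas transcripts are among them was not looked up. Nucb2, the precursor of nesfatin, was at 11.9 and 7.03 RPKM against 8.75 and 6.71 (log2 fold change -0.25, limma adjusted p = 0.809). ProSAAS, encoded by Pcsk1n and known as the inhibitor of Pcsk1 in the way that 7B2 partners Pcsk2, was looked up after the values had been seen. It overlapped between the genotypes, at 784 and 1222 RPKM in wild-type against 925 and 1051 in G85R.

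Convertases other than Pcsk2 had lower RPKM than Pcsk2 in these cells. Of 8 listed, 5 were tested, 3 of them below 0 and 2 above, with a median log2 fold change of -0.09 that turned to 0.052 when the minimum mean RPKM was 5 and was -0.056 without G85R replicate 1. Pcsk1, the other convertase of dense-core vesicles, was at 3.33 and 3.38 RPKM in wild-type against 1.62 and 1.54 RPKM in G85R, on an estimated 76 to 184 reads. Its replicates were close and its genotypes did not overlap (log2 fold change -1.04, SE 0.17, limma adjusted p = 0.0609). Mbtps1, the site-1 protease of the Golgi and the most abundant of the list, overlapped at 14.2 and 15.8 against 15.8 and 15.3 RPKM.

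For the carboxypeptidases and other modifying enzymes, 7 of 10 were tested, and the median log2 fold change was 0.31 with 2 genes below 0 and 5 above. At an unadjusted limma p under 0.05 there were 1 lower and 5 higher genes, beside 6.37% and 4.66% of all tested genes. None was called after adjustment. Ctsl, cathepsin L, a lysosomal protease that also cuts propeptides in vesicles, was at 46.4 and 43.2 RPKM in wild-type against 65.3 and 53.8 in G85R (log2 fold change 0.41, limma adjusted p = 0.302). Cpxm1, a relative of the carboxypeptidases that lacks their catalytic residues, was at 6.78 and 8.15 against 11.1 and 13.8 RPKM (log2 fold change 0.73, limma adjusted p = 0.132). Astrocyte and microglial marker sums were also higher in both G85R libraries. Of the astrocyte markers, only Gfap and S100b were higher without overlap. Of the 7 microglial markers, 4 (C1qa, C1qb, C1qc and Itgam) were higher without overlap, beside 17.3% of all tested genes. The microglial sum of G85R replicate 2 was close to wild-type, at 16.7 against 13.9 and 15.7. The part of these cells in the values of the enzymes was not tested.

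Of 6 relatives of Cyb561 and its ascorbate supply, 4 were tested and none was called. A log2 fold change below 0 was found for 1 and above 0 for 3, with a median of 0.10 that turned to -0.015 without wild-type replicate 1 and to -0.029 with no filter on low values, and was 0.21 without wild-type replicate 2 and 0.025 without G85R replicate 2. Slc23a2, the vitamin C transporter of neurons, was at 18.4 and 19.8 RPKM in wild-type against 19.5 and 22.5 in G85R, and these values overlap. Cyb561d1, a cytochrome b561 domain protein, was at 5.17 and 5.20 against 6.33 and 6.76 RPKM (log2 fold change 0.33, limma adjusted p = 0.417).

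Genes of vesicle formation and release were centred near 0. A total of 14 of the 21 tested were below 0 and 7 above, with a median log2 fold change of -0.02. Rab3a, the vesicle GTPase that is abundant in neurons, was at 1000 and 1025 RPKM in wild-type against 1001 and 987 in G85R. The widest difference was that of Cadps2, a priming factor for dense-core vesicle release, at 4.21 and 2.77 against 1.20 and 1.495 RPKM (log2 fold change -1.28, limma adjusted p = 0.101).

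**Figure D4:**
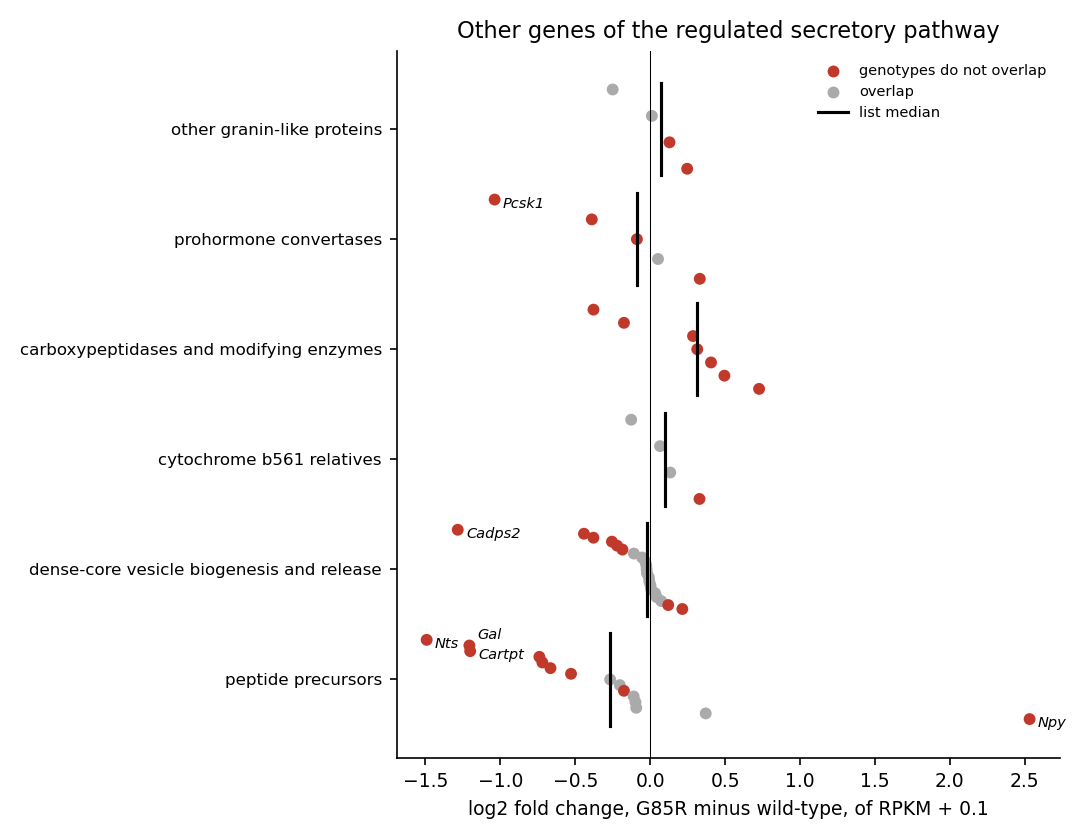
Log2 fold change of RPKM + 0.1, G85R minus wild-type, for the 56 tested genes of 6 lists from the regulated secretory pathway. Each point is a gene, red where the genotypes did not overlap and grey where they did, and vertical bars are list medians. Points of the peptide precursors lie mostly left of 0, with Npy far to the right at 2.53.

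Cargo peptides were the list with the lowest median, as the plot of the 6 lists shows. Of 15 tested precursors, 13 had a log2 fold change below 0 and 2 above, with a median of -0.27, and 6 lower and 1 higher passed an unadjusted limma p under 0.05 (6.37% and 4.66% of all tested genes) with none called after adjustment. The median was -0.56 without wild-type replicate 1, -0.50 without wild-type replicate 2 and -0.18 with a pseudocount of 1. Of 8 motor neuron markers, 4 (Chat, Mnx1, Prph and Ret) were lower in G85R without overlap, beside 23.9% of all tested genes. Slc18a3, Slc5a7, Isl1 and Chodl overlapped, with Slc5a7 at a log2 fold change of 0.04, and none of the 8 was called. The part of these markers in the peptide values was not tested. Calca, the CGRP precursor and the most abundant cargo of these motor neurons, was at 748 and 884 RPKM in wild-type against 340 and 718 RPKM in G85R. The G85R replicates differed by 1.08 on the log2 scale, more than the genotypes did (log2 fold change -0.72, limma adjusted p = 0.462). The paper lists Calca among the genes with reduced RNA in G85R and also reports a change of Calca by qRT-PCR in several mouse pairs. Npy, neuropeptide Y, was at 1.38 and 1.12 RPKM in wild-type against 2.95 and 19.7 in G85R, so that its log2 fold change of 2.53 (limma adjusted p = 0.274) rested mostly on G85R replicate 2. Cartpt, the precursor of CART peptides, and Gal, that of galanin, were looked up after the values had been seen. Cartpt was at 48.7 and 35.8 against 15.4 and 21.3 RPKM (limma adjusted p = 0.0663), and Gal at 4.31 and 4.24 against 1.55 and 2.07 (limma adjusted p = 0.0542).

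The genes with the profile closest to that of Scg5 over the 4 libraries, by Euclidean distance of centred log2 values, were Pla2g4e, 1700003M02Rik, Hddc3, Exdl1 and Sqrdl, at distances of 0.141 to 0.498. Pla2g4e was at 8.67 and 8.84 RPKM in wild-type against 2.25 and 2.02 in G85R. Of these 5, Pla2g4e, Exdl1 and Sqrdl lie on chromosome 2, like Scg5, while none is a granin or a processing enzyme. Likeness over 4 libraries mostly means a genotype difference of similar size.

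The neighborhood of Scg5 was also read off from the annotation of NCBIM37. Of 111 tested entries (110 genes) within 10 Mb of Scg5, 6 were called by limma, or 5.41%, beside 0.642% of all tested genes. Pla2g4e and Exdl1 are among the 6 and were already named for their likeness to Scg5, so this share is a description with no test. Gchfr (log2 fold change -1.18), Exdl1 (-1.73) and Pla2g4e (-1.99) were lower in G85R, and Ndufaf1 (0.98), Ell3 (1.67) and B2m (1.77) were higher, with limma adjusted p of 0.00219 to 0.0465. They lie 5.32 to 8.30 Mb away, all on the side of higher coordinates, where most of the 111 tested entries also lie. None of the 7 tested genes within 1 Mb was called. The nearest neighbors had low levels: Arhgap11a, 895 bases away, was at 1.67 and 1.54 RPKM in wild-type against 1.25 and 1.05 in G85R (limma adjusted p = 0.519), and Fmn1, on the other side, at 2.62 and 2.58 against 1.70 and 2.23 (limma adjusted p = 0.528). Chgb and Pcsk2 share the chromosome but lie 18.9 and 29.7 Mb from Scg5. The lines were bred on a mixed background, and mutation and strain around Scg5 cannot be told apart here.

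**Figure D5:**
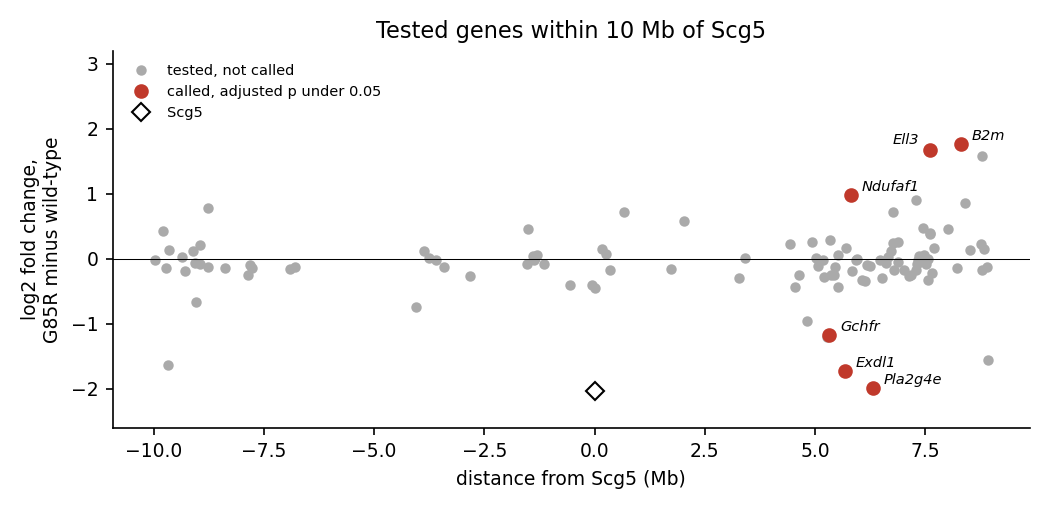
Log2 fold change of RPKM + 0.1, G85R minus wild-type, against distance from Scg5 in Mb for the tested genes within 10 Mb. Red points were called by limma and named, grey points were not, and the open diamond is Scg5. The 6 called genes, 3 lower and 3 higher, sit 5.32 to 8.30 Mb to the right, and the nearest neighbors, Fmn1 and Arhgap11a, lie at -0.40 and -0.45.

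The plot of neighbors shows the genes directly around Scg5 above its own value of -2.03, for which Scg5 was chosen. Promoter sequence was compared among the 7 genes of the set that matched the RefSeq promoter table (GRCm38.p6, 250 bases before to 50 after the start of the gene), while Vgf, Cpe and Cyb561 were not matched. The letters searched, on both strands, were TGACGTCA, the cAMP response element known from granin genes, and its shorter form TGACGT, which the longer one contains. The longer form occurred in 2 of the 7 (Chgb and Scg2) and in 1.79% of 32851 promoters, and the shorter in 4 of the 7 (Chga, Chgb, Scg2 and Scg5) and in 7.51%. The following 28-base windows are shown because they let Scg5 be set beside the granins whose genotypes overlapped. Capitals mark the motif, and each is on the coding strand.
Scg5: aaggaggtaaaTGACGTtcataggggtc
Chga: gggcggtcctaTGACGTaatttcctggg
Chgb: ggctgctccgTGACGTCAgggctgagcg
Scg2: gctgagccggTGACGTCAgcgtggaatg

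By exact match to NCBIM37, the Scg5 window is at chr2:113669407-113669434 on the minus strand, 129 bases before the first annotated base of the gene, and that of Chga at chr12:103793096-103793123 on the plus strand, 56 bases before it. The Chgb window lies at chr2:132607296-132607323 on the plus strand, in an annotated exon 282 bases into the gene, and the Scg2 window at chr1:79436652-79436679 on the minus strand, across the first annotated base. Counted from the start in the RefSeq promoter table, Chgb was placed 72 and Scg2 68 bases before it. The annotations thus put the starts of these genes at different bases. Scg5 and Chga thus hold the shorter form and Chgb and Scg2 the full one. The other 3 genes in the table, Scg3, Pcsk2 and Pam, held neither form. A match of letters is a description and says nothing of whether a factor binds there.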

How the data were processed

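Reads were mapped by the authors with Bowtie 0.12.3 to mm9 (NCBIM37) and a splice-junction database and quantified with Cufflinks per cluster of UCSC transcripts. The authors deposited RPKM, with a further column holding the RPKM after 1 added read. The difference of both columns is the RPKM of 1 read, from which reads were estimated. They are not exact counts, so no intervals were computed from them. Strand of counting is not given in the sources used here.

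Genotypes were compared, 2 libraries against 2, with limma 3.58.1 in R 4.3.3 (lmFit, eBayes with trend) on log2(RPKM + 0.1), which understates fold changes at low RPKM, for entries with a mean RPKM of at least 1, with Benjamini-Hochberg adjustment over all 11530. Calls required an adjusted p under 0.05. Genes were placed by GENCODE annotation of NCBIM37. Python 3.11.15, pandas 2.3.3 and matplotlib 3.10.9 were used otherwise.

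Named are the 10 genes, the most abundant and the widest-differing gene of each list, the 5 profiles closest to Scg5, its nearest and called neighbors and leading cell markers. The genes, lists and tests were chosen with earlier results of these data known. Alternatives were other pseudocounts, filters, scalings, eBayes options, a replicate block, a log-linear likelihood ratio test, summed entries and leaving out each library.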

Additional observations from a re-analysis of the deposited data

How the results depend on the processing

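Over all tested genes, 74 were called, and the count was 18 with no filter on low values, 17 with a mean RPKM of at least 5, 39 with quantile normalization, 49 with eBayes without a trend and 80 to 189 with 1 library left out, where the lone library is assumed to vary like the other genotype. Of the 9 genes listed by function 0 were called, against 1 (Vgf) with the log-linear likelihood ratio test and 0 to 1 (Cyb561, without G85R replicate 2) with 1 library left out. Of the pathway genes 0 were called, against 1 with a pseudocount of 1 (Gal), 1 without a trend (Pcsk1), 2 with robust eBayes (Pcsk1 and Gal), 4 with the log-linear test (Gnas, Calca, Cartpt and Npy) and 0 to 7 with 1 library left out. The log-linear test takes no account of the spread between replicates, and the cause of these shifts was not tested.

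With the replicate number as a block the counts were 527 over all genes, 2 of the 9 (Vgf and Cyb561) and 11 pathway genes. The labels do not say what a number shares, and same-numbered libraries deviated together with a correlation of 0.22 over only 2 pairs.

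For the 9 genes other than Scg5, 117 of 126 alternative values of the fold changes kept their direction and side of the threshold, 3 passed it and 6 changed sign, where filters, eBayes options and the block alter the p but not the fold change. Summed entries could only repeat the main values, since each gene has 1 entry. The 6 sign changes were of granins near 0. Chgb was -0.020 with quantile normalization. With 1 library left out Chga ranged from -0.21 to 0.066, Chgb from -0.17 to 0.19 and Scg2 from -0.27 to 0.17. The difference in the log2 ratio of Scg5 to Pcsk2, a description, was -1.88 to -1.69 with 1 library left out. Of 78 alternative medians of the pathway lists, 20 were counted as moved, which does not mean that they exceeded the spread between replicates. Some of these shifts were small, as for convertases from -0.089 to -0.075 without wild-type replicate 2. The median replicate difference on the log2 scale was 0.156 in wild-type and 0.145 in G85R. Over all alternatives the median ranged from 0.003 to 0.25 for other granin-like proteins, -0.12 to 0.052 for convertases, 0.18 to 0.35 for carboxypeptidases and modifying enzymes, -0.029 to 0.21 for relatives of Cyb561, -0.055 to -0.00079 for vesicle formation and release, and -0.56 to -0.18 for peptide precursors.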
